A study of Mus musculus with 15 samples.

Results

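The comparison described here sets mice whose environmental enrichment had ended against mice whose enrichment went on, in the dentate gyrus of the hippocampus. It holds 10 of the 15 mice of the series, 5 in each group, and they were chosen by their housing label. All were female C57BL/6JRj mice aged 7.5 months. The enriched mice had 6 months of enrichment, and the withdrawal mice had 3 months of enrichment followed by 3 months in standard cages. The other 5 mice spent 6 months in standard cages and are given beside the results as values, with no test. Enriched and withdrawal mice differ both in their latest housing and in their total time in enrichment, and these cannot be told apart. The labels do not say which mice shared a cage, a litter or a library batch. The tests treat the 10 mice as independent, so p-values do not account for a shared cage, litter or batch.

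Enrichment means larger cages with varied objects, running wheels or companions, and in the dentate gyrus it is known for raising the survival of newborn granule neurons. Methylation of cytosine in CpG dinucleotides is set by DNA methyltransferases and removed through oxidation by TET enzymes. CpG-rich promoters are mostly unmethylated, while most other CpGs of the genome are methylated. Reduced representation bisulfite sequencing (RRBS) cuts genomic DNA with a restriction enzyme and reads the CpG-rich fragments after bisulfite treatment, which converts unmethylated cytosine only.

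Of 455836 CpG rows, each a cytosine on 1 strand with a percent methylation per mouse, 455664 were used, after 172 on the Y chromosome and the mitochondrial genome were left out. All of them had at least 3 values in each group, and 160536 had a value in all 10 mice. Gene ends, meaning 1 kb either side of an end of a protein-coding gene, held 144505 rows, a further 155536 lay elsewhere inside genes and 155623 lay between genes. Rows with a value numbered 347024 to 419201 in enriched mice and 389186 to 443956 in withdrawal mice, a difference in means of 31225 (exact two-sided permutation p = 0.135). The depth behind a percentage is unknown. The leading principal component of the complete rows took 14.9% of the variance, and enriched mouse 5 carried 84.0% of it, so counts of calls are also given without that mouse. In a bulk tissue, a change in the mix of cells and a change within cells give the same percentage. The tissue label could not be checked by expression. The 5′ ends of the granule cell genes Prox1 and C1ql2 were at 0.748% and 0.629% in enriched and at 1.43% and 0.825% in withdrawal mice. Those of Neurod2, Bcl11b and Dsp went the other way, at 8.46%, 2.87% and 2.04% in enriched and at 2.28%, 2.08% and 1.59% in withdrawal mice. The median over all gene ends was 2.008% in enriched and 2.015% in withdrawal mice, so low values at these genes do not check the tissue.

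The promoter windows of Dnajc10 and Hes5 are shown because their measured CpGs carry 2 of the differences described below. They come from RefSeq, assembly GRCm38.p6, on the plus strand, at chr2:80315216-80315515 and chr4:154960673-154960972, and span the annotated start. Capitals mark the CpGs with a measured row.
Dnajc10: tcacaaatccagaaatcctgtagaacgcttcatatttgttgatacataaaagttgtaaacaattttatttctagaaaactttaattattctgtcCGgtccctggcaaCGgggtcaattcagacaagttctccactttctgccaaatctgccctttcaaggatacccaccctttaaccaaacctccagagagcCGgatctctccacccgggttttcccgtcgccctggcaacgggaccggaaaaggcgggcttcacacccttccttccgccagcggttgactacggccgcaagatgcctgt
Hes5: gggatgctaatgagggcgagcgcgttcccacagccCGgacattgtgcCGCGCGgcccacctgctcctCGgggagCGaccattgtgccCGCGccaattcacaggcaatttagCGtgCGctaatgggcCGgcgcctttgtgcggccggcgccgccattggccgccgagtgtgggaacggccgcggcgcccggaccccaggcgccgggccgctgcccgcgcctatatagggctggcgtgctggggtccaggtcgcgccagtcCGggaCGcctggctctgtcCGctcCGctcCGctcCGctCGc
The Dnajc10 window holds 14 CpGs and the Hes5 window 41, against a median of 7 over 32851 promoters, and 3 and 23 rows were measured in them. CCGG, the palindromic site of the enzyme MspI, occurs 4 times in the first and 6 times in the second window, and 52.8% of all promoters hold it. Neither window holds the letters TGACG or CACGTG on either strand, which 20.8% and 7.15% of promoters hold.

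Mean methylation per mouse was compared first. Over all CpG rows it was 40.03%, 37.9%, 38.1%, 39.0% and 39.3% in enriched mice 1 to 5 and 39.4%, 39.7%, 38.6%, 39.2% and 39.1% in withdrawal mice 1 to 5. The withdrawal values lie within the range of the enriched values, and the difference in means was 0.329 points (exact permutation adjusted p = 0.544 over 8 measures). Gene ends averaged 7.48% ± 0.286 (SD, n = 5) in enriched and 7.59% ± 0.120 in withdrawal mice. The other rows averaged 45.0% and 45.4% inside genes and 61.8% and 62.3% between genes. Rows of intermediate methylation, with a mean of 20% to 80%, differed most in points among the 3 level classes, with 49.9% ± 3.04 in enriched and 51.3% ± 1.57 in withdrawal mice. Gene ends on the X chromosome averaged 37.4% ± 2.64 and 39.1% ± 1.07. Of the 8 measures, 0 passed, 7 with an exact permutation adjusted p of 0.544 and the rows over 80% with 0.992. Standard mice averaged 38.7% ± 0.370 over all rows, and at rows over 80% they averaged 92.5% against 93.5% in both other groups. The level classes were formed on the 10 enriched and withdrawal mice, so the last value is not a like comparison.

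**Figure D1:**
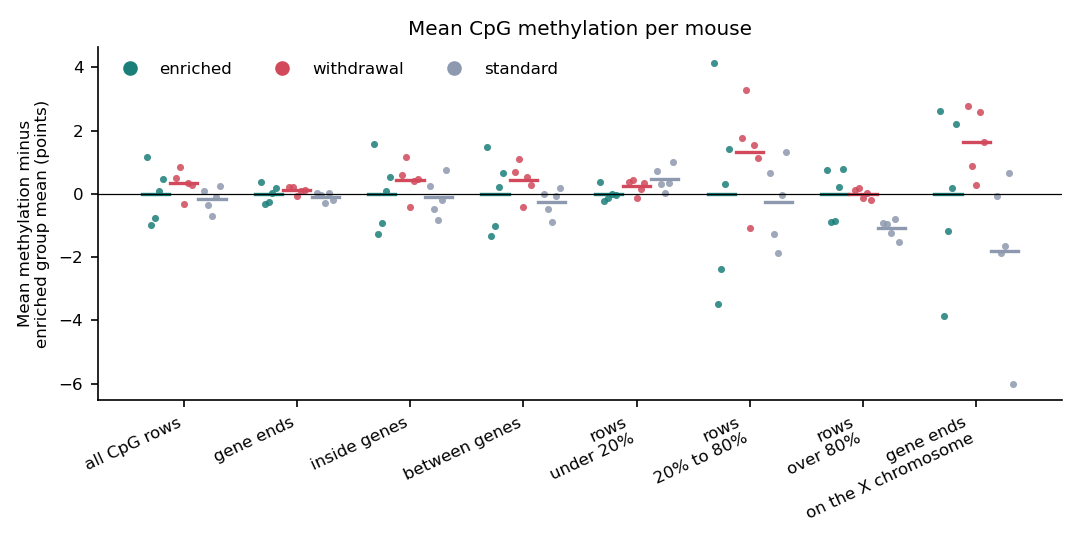
Mean methylation of each mouse in 8 sets of CpG rows, as points above or below the mean of the 5 enriched mice; dots are mice and bars are group means. Withdrawal and enriched mice overlap in all 8 sets, and the enriched mice spread over a wider range in the intermediate rows, with an SD of 3.04 against 1.57 points.

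Gene ends were tested next. Of 12005 gene ends of 10990 genes, limma called 0 (0%) at an adjusted p under 0.05, and 677 (5.64%) had an unadjusted p under 0.05, of which 424 were higher and 253 lower after withdrawal. The median difference was 0.0436 points and the median size 0.958 points. Among 8003 gene ends with a value in all 10 mice, the groups did not overlap at 66 (0.825%), with 39 higher and 27 lower after withdrawal. Without enriched mouse 5 the number called was also 0. Without enriched mouse 1 it was 1 (Myh7), and without withdrawal mouse 1 it was 1 (the lower end of Adra1d).

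The size of a difference varied with how many CpG rows a gene end held. The 2637 gene ends with 3 to 5 rows had a median size of difference of 2.23 points, against 0.534 points at the 2531 gene ends with over 20 rows. Of the 13 gene ends with an unadjusted p under 0.001, 7 had 3 to 5 rows and 0 had over 20. The 1046 gene ends of intermediate level had a median difference of 1.46 points, with 57.4% higher after withdrawal. The 759 gene ends over 80% went the other way, with a median of -0.294 points and 46.0% higher, and the 10200 under 20% had a median of 0.0294 points. The 363 gene ends on the X chromosome had a median of 1.51 points, with 60.1% higher, against 0.0311 points and 51.0% on autosomes.

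**Figure D2:**
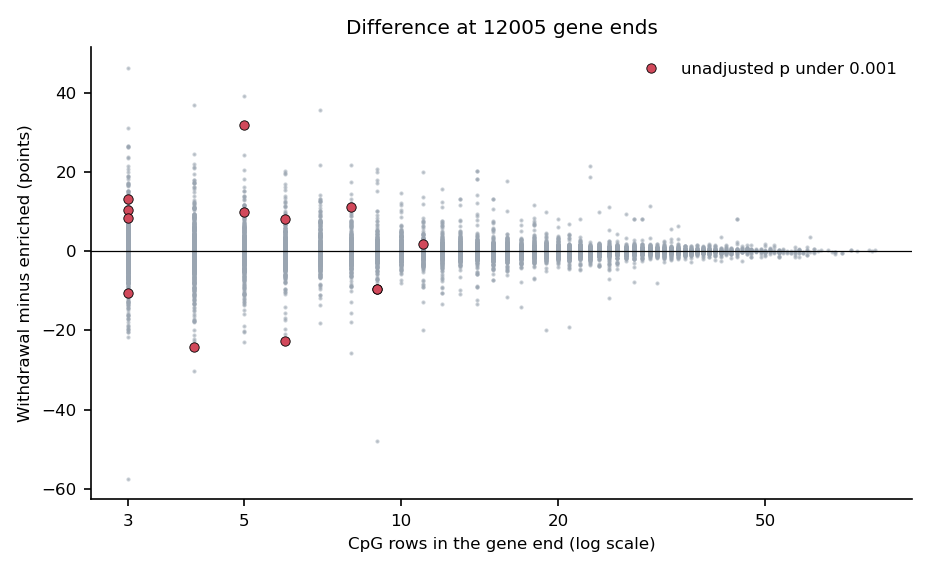
Difference in methylation between withdrawal and enriched mice (points) at 12005 gene ends, against the number of CpG rows in each (log scale); red dots have an unadjusted p under 0.001. The cloud narrows from a median size of 2.23 points at 3 to 5 rows to 0.534 points over 20 rows, and the 13 red dots all lie at 11 rows or fewer.

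The gene end with the smallest p was the 3′ end of Myh7, which encodes the beta myosin heavy chain of slow and cardiac muscle. Its 3 rows lie inside the gene, 409 to 473 bases from the edge at 54970684 of chromosome 14. Enriched mice 2 to 5 were at 86.3%, 88.1%, 84.5% and 88.0%, and enriched mouse 1 had no value. All 5 withdrawal mice were at 100%, and the standard mice were at 72.2%, 100%, 83.3%, 100% and 93.9%. The groups did not overlap, with 13.3 points between them (log2 ratio difference 2.06 ± 0.22 SE, limma adjusted p = 0.0501, and 0.0365 to 0.880 over the alternatives). Partial methylation fell on different rows in different enriched mice: mouse 2 was at 58.8% at the first row and 100% at the others, mouse 3 at 64.3% at the last row only, and mice 4 and 5 below 100% at the middle and last rows.

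Dnajc10 encodes a disulfide reductase of the endoplasmic reticulum. Its 3 rows lie 37 to 136 bases before the gene at 80315446 of chromosome 2, in the promoter printed above. Enriched mice 1 to 4 were at 0%, 2.22%, 0% and 1.11%. Withdrawal mice 1, 2, 4 and 5 were at 12.1%, 7.84%, 11.1% and 13.8%, and the 3 standard mice with a value at 0%, 0% and 10.3%. The withdrawal values are all above the enriched ones, by 10.4 points in the mean (limma adjusted p = 0.397). At base 95 of the window the withdrawal mean was 13.1% and its range 0% to 29.4%, at base 108 it was 4.35%, and at base 194 12.9%, so no single CpG was high in every withdrawal mouse. Enriched mouse 5 and withdrawal mouse 3, measured only at base 194 and so without a value for the gene end, were at 14.3% and 0% there, which is the reverse order.

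Fos encodes an immediate-early transcription factor induced by neuronal activity. Its 5′ end had 11 rows, at chr12:85474528-85474700, which lie 638 to 810 bases inside the gene and beyond the promoter window. All 5 enriched mice were at 0%, and withdrawal mice 1 to 5 were at 1.52%, 1.01%, 1.39%, 2.99% and 2.68%. Standard mice were at 0%, 0%, 1.44%, 0% and 4.75%. Of the 11 rows 4 were above 0% after withdrawal and 7 were at 0% in all enriched and withdrawal mice with a value (limma adjusted p = 0.559 for the gene end). Most of the difference lay at the first row, at 85474528, which was singled out after its values were seen. There withdrawal mice 1 to 5 were at 16.7%, 11.1%, 3.33%, 6.85% and 19.4% and all 5 enriched mice at 0%. Standard mice 1 to 5 were at 0%, 0%, 10%, 0% and 18.5% at that row and so covered both groups. The other 3 rows were above 0% in 1 or 2 withdrawal mice each. Enriched mouse 1 had values at 3 of the rows only.

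Stk17b, which encodes a serine/threonine kinase linked to apoptosis, was also at 0% in all 5 enriched mice. Its 6 rows, at chr1:53784362-53784555, lie 682 to 875 bases inside the gene from its 5′ edge. Withdrawal mice 1 to 5 were at 3.93%, 10%, 5.56%, 16.1% and 5.05% (limma adjusted p = 0.559), and standard mice ran from 0% to 9.48%. Enriched mice 2 and 3 and withdrawal mice 1, 4 and 5 were measured at 3 of the 6 rows only. Their values therefore also hold the mean level of the missing rows. No row was above 0% in every withdrawal mouse with a value. Vkorc1l1, a relative of the vitamin K epoxide reductase, had 3 rows at its 3′ end, at chr5:129986531-129986745, with 91.6% ± 3.37 in enriched mice and 100% in all 5 withdrawal mice (limma adjusted p = 0.397).

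Gene ends of intermediate level had wider gaps. At the 5′ end of Cbr2, a carbonyl reductase gene, 5 rows at chr11:120732222-120732490 lie 197 to 465 bases outside the gene. Enriched mice 1 to 4 were at 33.8%, 35.6%, 39.3% and 40.7%, withdrawal mice 1 to 4 at 65.0%, 74.0%, 80.2% and 58.0%, and standard mice 2 to 5 at 38.2%, 41.7%, 55.8% and 70.0%. All 5 rows were higher in the mean after withdrawal, and the standard mice ran across both groups (limma adjusted p = 0.770 for the 31.9-point difference). Mouse 5 of each group was measured only at 120732222 and 120732375 and so had no value for the gene end. Enriched mouse 5 was at 28.2% and 39.0% there and withdrawal mouse 5 at 26.7% and 19.2%, which is the reverse order.

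Mdk, the gene of the heparin-binding growth factor midkine, and Dgkz, a diacylglycerol kinase gene, lie next to each other on chromosome 2 and share the same 9 rows, from 91932064 to 91932361. Enriched mice 1 to 5 were at 15.9%, 10.7%, 17.1%, 14.1% and 12.8%, and withdrawal mice at 5.31%, 2.13%, 2.21%, 6.84% and 6.00%. The groups did not overlap, and 6 of the 9 rows were lower, 2 higher and 1 equal (limma adjusted p = 0.559). Standard mice 2 to 5, at 10.4%, 8.78%, 1.17% and 23.9%, covered both groups.

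Of the 12 gene ends with the smallest p, 7 were higher after withdrawal. In all 12 the groups did not overlap, which the choice by p favours and which is no further evidence. The standard mean was nearer the withdrawal mean in 4 of them, and over all gene ends in 51.1%. The remaining 4 had limma adjusted p-values of 0.770. Incenp of the chromosomal passenger complex was at 99.2% ± 1.87 in enriched and 88.6% ± 5.32 in withdrawal mice (n = 5 each). Nccrp1 was at 7.42% ± 2.49 (n = 4) and 18.6% ± 2.50 (n = 5), and S100pbp at 26.9% ± 9.79 (n = 3) and 2.66% ± 3.17 (n = 4). Lrg1, a secreted leucine-rich glycoprotein gene, was at 22.6% ± 12.9 and 0% (n = 3 each). Standard mice ran from 81.4% to 100% at Incenp, 11.7% to 22.8% at Nccrp1, 0% to 59.7% at S100pbp and 11.7% to 15.6% at Lrg1. Among gene ends with all 10 mice and no overlap, the widest gaps beyond those named were at Tubgcp6 of the gamma-tubulin ring complex, with 39.5% ± 16.8 and 19.8% ± 4.54, and at the neighbours Tnk1 and Plscr3. At Tnk1 the values were 83.0% ± 8.36 and 92.8% ± 2.96, and its 6 rows are among the 7 of Plscr3.

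**Figure D3:**
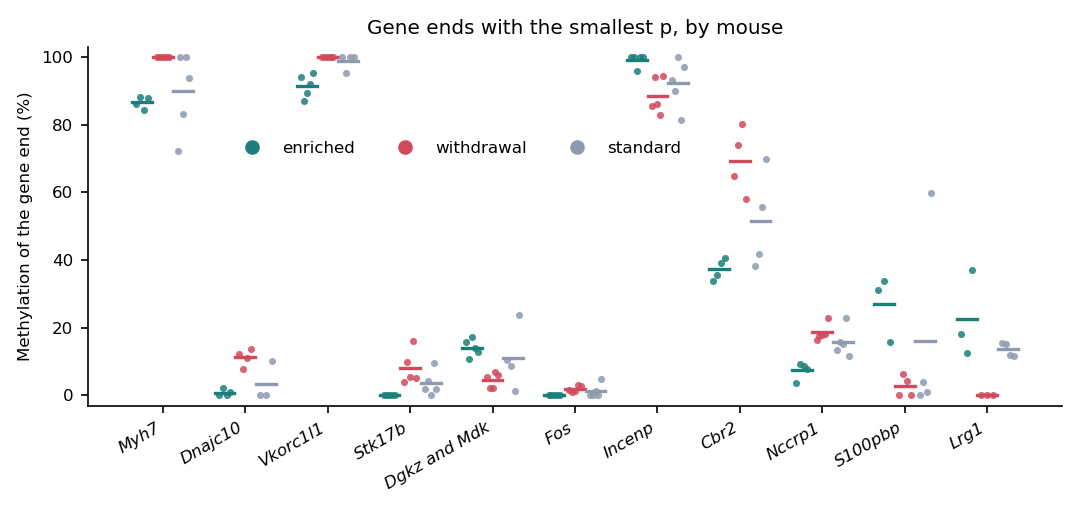
Methylation (%) of the 12 gene ends with the smallest p, where Dgkz and Mdk share their rows; dots are mice and bars are group means. Enriched and withdrawal mice do not overlap at any of them, which the choice by p favours. Standard mice spread over both groups at Myh7, Fos, Incenp, S100pbp and Cbr2 and at Dgkz and Mdk, among others.

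**Figure D4:**
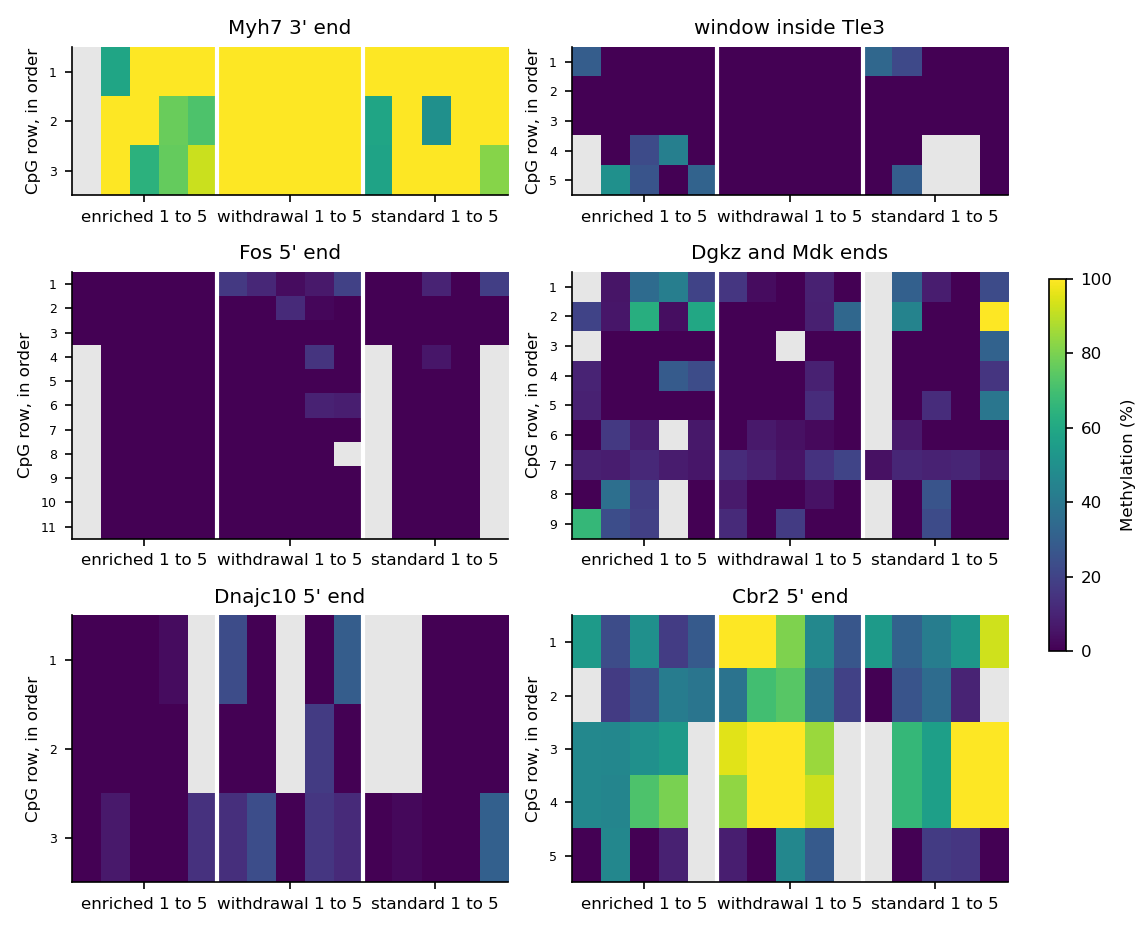
Methylation (%) of each CpG row (lines, in order along the chromosome) in each mouse (columns) for 6 of the features described; grey means no value. In Fos the first row is above 0% in all 5 withdrawal mice and in standard mice 3 and 5. In the window in Tle3 and in Myh7 no row is above 0%, or below 100%, in every enriched mouse with a value.

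Fixed windows of 1 kb gave the only features that passed the test of a difference in level. Of 53579 windows limma called 2 (0.00373%), 1 lower and 1 higher after withdrawal, with 2924 at an unadjusted p under 0.05. Methylation fell by 9.71 points in the window at chr9:61378001-61379000, inside Tle3, a Groucho-family transcriptional corepressor gene, 6174 bases from its 5′ end (limma adjusted p = 0.0321). Enriched mice 1 to 5 were at 13.8%, 10%, 9.76%, 8.64% and 6.40%, all 5 withdrawal mice at 0%, and standard mice at 6.67%, 10.4%, 3.96%, 3.96% and 0%. Of its 5 rows 2 were at 0% in every mouse, and each enriched mouse was above 0% at 1 or 2 of the other 3. Standard mice 3 and 4 lacked 2 rows and were at 0% at the others, so their values come from the mean level of the missing rows. Enriched mouse 1 lacked the same 2 rows and was at 29.4% at 1 of its 3 measured rows and 0% at the others, so its 13.8% also holds such a fill. Methylation rose by 13.3 points in the window at chr14:54971001-54972000, which holds the 3 Myh7 rows described above (limma adjusted p = 0.0321).

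Both calls were lost on the percent scale and with the robust fit. With only the rows complete in all 10 mice the difference in Tle3 was -1.96 points and not called, and Myh7 could not be tested. With all 15 mice in the fit neither was called and 2 other windows were. Over the alternatives the limma adjusted p ran from 0.00519 to 0.958 for the window in Tle3 and from 0.0203 to 0.876 for that in Myh7. Without enriched mouse 5 the number called was 1, without enriched mouse 1 it was 2, and without any 1 of the other 8 mice it was 0. The withdrawal mice had no spread at either window, being all at 0% or all at 100%, and the part of that in these calls was not tested.

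The other 8 windows with the smallest p included Vkorc1l1 and Dnajc10 again. The window at chr11:57559001-57560000, between genes and 25683 bases from Mfap3, had 4 rows, all higher after withdrawal. Enriched mice 2, 3 and 4 were at 33.7%, 47.1% and 35.7%, withdrawal mice 1 to 5 at 88.9%, 87.5%, 90.8%, 79.4% and 85.8%, and standard mice at 100%, 100%, 74.7%, 81.1% and 90.1%. Enriched mice stood apart from both other groups there (limma adjusted p = 0.335). The same order held inside Gtf2ird1, a transcription factor gene whose human copy is deleted in Williams syndrome, 44839 bases from its nearest end, at chr5:134402001-134403000, with 0%, 0% and 1.22% in 3 enriched mice, 20.8%, 22.7% and 23.9% in 3 withdrawal mice and 15.6% to 28.4% in 4 standard mice (limma adjusted p = 0.454). At chr5:142282001-142283000 the order was another one: the 4 enriched mice were at 100%, the 3 standard mice at 98.0% to 100% and the 3 withdrawal mice at 75.6%, 50% and 53.9% (limma adjusted p = 0.335, and 0.0416 with all 15 mice in the fit). At chr16:91243001-91244000, which lies 14823 bases from Olig2, the values were 100% in 3 enriched mice and 78.4% ± 7.06 in 4 withdrawal mice.

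Whole genes, taken with 1 kb on each side, gave 0 calls (0%) among 14797, with 796 at an unadjusted p under 0.05 and a smallest limma adjusted p of 0.483. The 6 with the smallest p were 4932429P05Rik on the X chromosome, Mdk, Stk17b, Gm6712, Ankrd29 and Cbr2. In enriched and withdrawal mice 4932429P05Rik was at 96.4% ± 1.26 and 81.0% ± 6.51. Gm6712 was at 3.402% ± 0.898 (n = 3) and 10.6% ± 1.36 (n = 4), and Ankrd29 at 11.3% ± 1.59 and 18.5% ± 2.09. At Gm6712 enriched mice 1 and 5 and withdrawal mouse 5 were measured only at 17294455 of chromosome 17. They were at 25%, 7.14% and 0% there, which is the reverse order. Standard mice ran from 0% to 13.0% at Gm6712 and covered both groups. Mdk, Stk17b and Cbr2 hold the same rows as their gene ends and are no further evidence.

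Single rows gave 0 calls (0%) among 326419 with a range of at least 5 points, with 13653 at an unadjusted p under 0.05 and a smallest limma adjusted p of 0.877. In Msn, which encodes the membrane linker moesin, the minus-strand row at 96150293 of the X chromosome was at 58.6%, 72.0%, 68.6%, 57.1% and 68.8% in the enriched mice and at 100% in all 5 withdrawal and all 4 measured standard mice. The others were 44519202 of chromosome 13, 118060046 of chromosome 11 inside Dnah17, 27414843 of chromosome 15 and 7171159 of chromosome 2 inside Celf2. Withdrawal mice were at 100% at all of these except the chromosome 15 row, where they were at 0%, and 3 enriched mice had a value at each.

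Gene lists chosen for the tissue and the housing were then read against the whole set, where 5.64% had an unadjusted p under 0.05 and the median difference was 0.0436 points. In every list 0 gene ends were called. Of 40 gene ends of activity-regulated genes, 4 had an unadjusted p under 0.05, all higher after withdrawal, and the median difference was 0.262 points. Beside Fos they were Btg2 (0.906% ± 1.14 in enriched and 2.59% ± 0.823 in withdrawal), the lower end of Ier2 (0.868% ± 0.962 and 3.14% ± 1.79) and Gadd45g (0.355% ± 0.794 and 2.002% ± 1.27). The upper end of Ier2, with 44 rows against 11, was at 1.29% ± 1.28 and 1.07% ± 1.27. The early genes Arc, Egr1, Junb and Nr4a1 were at 4.77%, 1.395%, 1.18% and 2.41% at a gene end in enriched mice and at 5.77%, 0.192%, 1.35% and 1.52% in withdrawal mice.

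Enzymes and readers of DNA methylation had 16 gene ends, of which 1 had an unadjusted p under 0.05. This was Dnmt3b, a de novo methyltransferase gene, with 2.98%, 0% and 2.03% in 3 enriched mice and 0% in 4 withdrawal mice. The demethylation enzyme genes Tet1, Tet2 and Tet3 were at 2.87%, 0.657% and 0.542% in enriched and at 1.98%, 2.59% and 0.793% in withdrawal mice. The 5′ end of Smug1, a uracil glycosylase gene, was at 8.44% ± 6.86 (n = 4) and 14.5% ± 3.69 (n = 5). Its RefSeq promoter window, chr15:103163235-103163534, lies elsewhere and held 7 rows. The group means differed there by 9.23 points at 103163377, by -3 points at 103163390 and by 0 at the other rows.

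Genes of neurogenesis and granule cell identity had 32 gene ends and 1 with an unadjusted p under 0.05, the 5′ end of Hes5, a Notch target of neural stem cells. Enriched mice 1 to 5 were at 0%, 1.10%, 0.523%, 0% and 0.926% and withdrawal mice at 2.14%, 1.94%, 1.63%, 2.07% and 0.476% over 28 rows. Withdrawal mouse 5 lay within the enriched range and the other 4 above it (limma adjusted p = 0.868). Most of this lay at base 36 of the window printed above, a row singled out after its values were seen: withdrawal mice 1 to 5 were at 60.0%, 18.8%, 26.7%, 31.7% and 0%, and enriched and standard mice at 0% to 2.38%. The 5′ end of Pax6, a progenitor transcription factor gene, was at 2.90% ± 2.53 and 9.56% ± 6.68 (n = 4 each). Enriched mouse 5 and withdrawal mouse 2 had too few rows for a value at this gene end. At the row at 105669874 they were at 90% and 0%, which is the reverse order. Neurod2, a neuronal differentiation gene, was at 8.46% ± 6.56 (n = 4) and 2.28% ± 3.18 (n = 5).

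Neurotrophins and growth factors had 1 of 18 gene ends with an unadjusted p under 0.05, Igf1r, the receptor gene of insulin-like growth factor 1, with 1.16% ± 0.764 and 2.62% ± 0.516. The 5′ end of Ntrk2, the receptor of BDNF, was at 1.36% ± 1.59 and 2.70% ± 1.84. Of 10 gene ends of the stress hormone axis it was 1, the 5′ end of Sgk1, a glucocorticoid-induced kinase gene, with 3.02% ± 1.97 and 6.53% ± 1.59. There the row at 21881859 of chromosome 10, also singled out after its values were seen, was at 0%, 0%, 0%, 10.5% and 0% in enriched mice and at 41.2%, 17.2%, 61.5%, 42.5% and 51.1% in withdrawal mice. The groups did not overlap at that row, and the standard mice lay at 11.4% to 30%, each above every enriched mouse. Of the 13 rows of this gene end 4 were higher and 7 lower after withdrawal.

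Receptors and transmitter signalling had 3 lists. Glutamate receptors and scaffolds had 0 of 29, and GABA signalling 1 of 18, Gad2, the gene of a GABA-synthesising enzyme, with 3.39% ± 1.90 and 7.595% ± 2.38. Monoamine and acetylcholine receptors had 4 of 30, 1 higher and 3 lower. They were both ends of the serotonin receptor gene Htr1d, the 5′ end of the dopamine receptor gene Drd5 and the lower end of the adrenergic receptor gene Adra1d. At the lower end of Adra1d the enriched mice were at 18.3%, 17.0%, 14.1%, 14.2% and 13.7% over 4 rows. Withdrawal mice 1 to 5 were at 22.8%, 0.833%, 0.714%, 2.57% and 1.39% there. Withdrawal mouse 1 lay above all enriched mice and the other 4 below them. The limma adjusted p of 0.868 became 0.0276 without that mouse (0.0276 to 0.901 over the alternatives). The upper end of Adra1d, with 16 rows, was at 6.42% ± 3.83 in enriched and 5.05% ± 2.96 in withdrawal mice.

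Markers of other cell types in the tissue were read in the same way. Gene ends with an unadjusted p under 0.05 numbered 2 of 9 for astrocytes (Glul higher, Fgfr3 lower), 2 of 10 for the oligodendrocyte lineage (Cldn11 and Olig2, both higher) and 0 for microglia (of 3), endothelium and choroid plexus (of 4) and CA pyramidal cells (of 7). The 5′ end of Cldn11, a myelin tight junction gene, was at 10% ± 6.198 in enriched and 19.0% ± 3.95 in withdrawal mice. The Olig2 value came from its 3′ end, where 3 rows outside the gene were at 1.64% ± 2.79 and 10.8% ± 9.23. The 5′ end of Olig2, with 15 rows, was at 2.96% ± 2.26 and 4.43% ± 2.50. The median difference of the 10 oligodendrocyte gene ends was 1.51 points, the highest of the 13 lists, and their values ran from -2.19 to 9.11 points. The part of the cell mix in the results above was not tested.

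**Figure D5:**
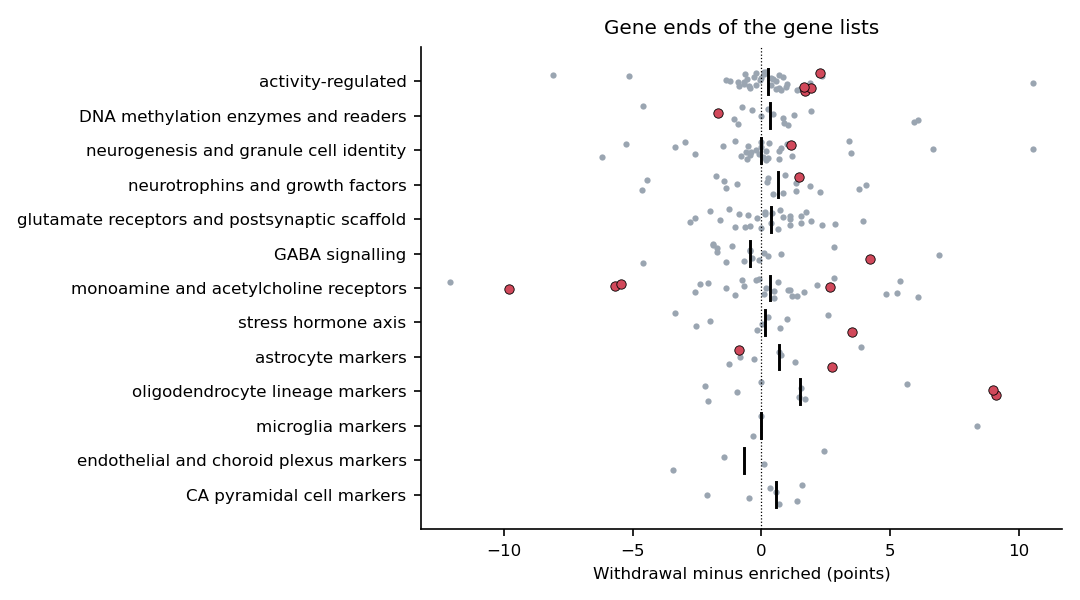
Difference between withdrawal and enriched mice (points) at each gene end of 13 gene lists; grey dots are gene ends, red dots those with an unadjusted p under 0.05, and black bars list medians. The medians run from -0.679 points for endothelial and choroid plexus markers to 1.51 points for oligodendrocyte lineage markers.

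The spread between mice within a group was compared at each gene end, since mice of 1 group can also differ among themselves. limma called 78 of 12005 gene ends (0.65%), 40 with wider spread after withdrawal and 38 with wider spread in enriched mice. In 38 of the 78, 1 group had the same value in all its mice. The 4 with the smallest p were Rps19bp1, Npbwr1 and Fancf, at 0% in all measured enriched mice and between 0% and 17.9% in withdrawal mice, and Uck2, at 0% in all measured withdrawal mice and between 0% and 8.33% in enriched mice. An unadjusted p under 0.05 was reached by 15.8% of all gene ends, 836 with wider spread after withdrawal and 1062 with wider spread in enriched mice. The values are bounded at 0% and 100%, where many mice lie, and the test suits such values poorly. Only 4 were called with deviations from the group median and 0 where both groups varied, and both alternatives were chosen after seeing the data. The number called was 0 with the replicate block, 15 with values in all 10 mice, 173 with all 15 mice in the fit and 127 without enriched mouse 3.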

How the data were processed

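Percent methylation per cytosine and strand was deposited by the authors in 1 table with a column for each mouse. Per the submitters' processing notes, the tools were Trim Galore 0.4.0, cutadapt 1.8.1, Bismark 0.16.1 and methylKit 1.5.2, and the genome build was mm10. The coverage minimum is not given in the sources used here. The table held 2918114 positions. CpG rows were those before the chromosome order restarts, and all 47000 that fall in promoter windows lie on a CG of GRCm38.p6. Sites with low or high depth cannot be weighed, because no read counts accompany the values.

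Each mouse's value for a feature was the mean over its rows of the percentage minus the row mean, plus the average row mean, where a row mean is the average of the enriched and withdrawal means. A missing row is thus filled by the level of the row, in standard mice too, and 4.45% of the gene end values were set to 0% or 100% where they ran past it. A mouse needed 3 rows and a feature 3 mice in each group. Gene positions came from RefSeq (GRCm38.p6). Strand was known for 17274 of 21631 genes, and the ends of the others are given without 5′ or 3′. Of the gene ends, 2276 shared all rows with another. limma 3.58.1 in R 4.3.3 tested log2((percent + 5)/(100 - percent + 5)) with a variance trend in the 10 mice, two-sided, with Benjamini-Hochberg adjustment over all features of a kind. Measures with 1 value per mouse used exact permutation over 252 arrangements. The spread test used absolute deviations from the group mean without a trend. The fits were tested on simulated data with normal noise and no bounds. That does not check them for values at 0% or 100%.

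Named features were the 12 gene ends, 10 windows, 6 whole genes and 5 rows with the smallest p, the 4 gene ends with the smallest p for spread, the 2 smallest per list, and the 6 widest gaps among gene ends with all 10 mice and no overlap. Other genes of the lists were named after their values were seen. A gene of the lists is not reported here. Members and lists were chosen with earlier results of these data known. Alternatives changed the scale, offset, rows, variance, feature size and mice.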

Additional observations from a re-analysis of the deposited data

Results flagged for a closer look

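In groups of 4 or 5 mice, 9 of the 113 groups looked at had 1 mouse far from the others by a gap test. The test flags about 1 in 20 groups by chance where values are normally distributed, which these bounded values are not. It always flags a group where all mice but 1 have the same value, as at Incenp, Gadd45g, Grm8 and Fgfr3. Enriched mouse 3 was the one at Incenp (95.8%, the others at 100%), Gadd45g (1.78%, the others at 0%) and the 3′ end of Olig2 (6.45%, next 1.75%). It was also the one at Tnk1 (68.3%, next 84.8%) and Plscr3 (72.1%, next 87.0%), which share rows. Withdrawal mouse 1 was the one at the lower end of Adra1d (22.8%, next 2.57%), Grm8 (0.385%, the others at 0%) and Fgfr3 (0.752%, the others at 0%). Withdrawal mouse 5 was the one at Nccrp1 (23.0%, next 18.1%).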

How the results depend on the processing

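Whole genes and single rows had 0 calls under every alternative run. Gene ends had 1 call with an offset of 1 point, with the plain mean over rows and with 500 bases either side, and 0 to 1 when each mouse was left out in turn. Windows had 0 calls on the percent scale, with the robust fit, with complete rows, with at least 5 rows and with the replicate block, 1 with values in all 10 mice, and 0 to 2 when each mouse was left out. For spread, 136 gene ends were called with an offset of 1 point, 173 with all 15 mice in the fit, 37 with the robust fit, 123 with the plain mean, 28 with at least 5 rows, 15 with values in all 10 mice, 4 with deviations from the median, 0 where both groups varied, and 67 to 127 when each mouse was left out. The difference in mean methylation between genes was -0.277 points with the median of centred values. At rows over 80% it was 0.152 points with complete rows, 0.0208 with the plain mean and -0.354 to 0.184 when each mouse was left out. When each mouse was left out in turn, the difference ran from -0.825 to 1.67 points at Pomc, with -0.0694 without withdrawal mouse 5, and from -7.37 to 5.08 points at the microglial receptor gene Trem2. At Trem2 the fitted log2 ratio also changed sign with the replicate block, where the difference was -0.322 points as before. The causes were not tested.

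The replicate numbers did not pair the mice: same-numbered mice had correlations of -0.0239 to 0.0262 in their deviations over 8003 gene ends, and 2 of 10 mice were closest to their own number. With the replicate block 0 gene ends, 0 windows and 0 spread differences were called. With no read counts, small differences at features with few rows cannot be told from sampling noise.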

Other observations

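The largest differences in points were not at the gene ends with the smallest p. The gene ends given here were chosen for their size after the values were seen, so they are a description. In the test over all gene ends each had a limma adjusted p of 0.868. The 5′ end of Nnat, an imprinted gene whose maternal copy is normally methylated, held 9 rows. Its values were 100%, 100%, 39.1% and 100% in enriched mice 1, 2, 3 and 5. Missing rows are filled and values past 100% are set to 100%, so such a value need not mean 9 fully methylated rows. Withdrawal mice 1 to 5 were at 51.0%, 44.9%, 4.02%, 48.9% and 35.7%, and standard mice at 56.3%, 28.7%, 33.1%, 36.2% and 57.5%. Of the enriched mice, 3 stood above every other mouse and 1 lay among them. At the 5′ end of Csf2, the gene of the cytokine GM-CSF, 3 rows averaged 87.3% ± 22.1 (SD, n = 3) in enriched mice, 29.8% ± 11.5 (n = 4) in withdrawal mice and 73.7% ± 17.4 (n = 3) in standard mice. The opposite order was seen at the 5′ end of Pyroxd2, an oxidoreductase gene, with 26.8% ± 16.9 (n = 3), 73.3% ± 18.2 (n = 4) and 38.04% ± 27.97 (n = 3).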
